A study of Mus musculus with 15 samples.

Results

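Genes that break down the branched-chain amino acids (leucine, isoleucine and valine), together with genes of lysine, proline, glutamine, GABA and threonine metabolism, were examined in mouse gastrocnemius. The set was a list of 33 gene symbols grouped by route, of which 32 of the 13602 symbols in the count table were found and 31 passed the low-count filter. Tdh, the first enzyme of threonine breakdown, was not analysed here, and Mmaa, a chaperone of the cobalamin-dependent mutase, had too few tags to be tested. The muscle came from 7 male mice with a skeletal muscle knockout of Cpt1b and from 8 male wild-type (floxed) control mice, and each mouse gave 1 SAGE library. The promoter that drove the recombinase is not named in the labels, and the age of the mice at dissection is not given. On diet the labels conflict: the series text and the sample titles give chow for 12 to 14 weeks, and every sample of both groups carries 45% HFD in its diet entry.

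Branched-chain amino acids are broken down in large part in skeletal muscle. A mitochondrial aminotransferase removes the amino group, and a large dehydrogenase complex then decarboxylates the keto acids of all of these amino acids. A kinase switches the complex off and a phosphatase switches it on. From there the routes divide. Leucine ends as acetyl-CoA and acetoacetate, isoleucine as acetyl-CoA and propionyl-CoA, and valine as propionyl-CoA, which becomes succinyl-CoA and enters the TCA cycle. Cpt1b, the muscle carnitine palmitoyltransferase of the outer mitochondrial membrane, admits long-chain fatty acids to the same organelle for oxidation. The comparison bears on how transcripts of amino acid oxidation stand in muscle labelled as a knockout of Cpt1b.

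In SAGE each mRNA molecule gives a short tag at its last site for an anchoring enzyme, and the tags are counted. Levels below are CPM, the tag count relative to the TMM-adjusted library total on the usual CPM scale, and they do not scale with transcript length. The labels do not name the enzyme. With CATG, the usual site of this method, the 27 bases from the site nearest the 3' end were read from GENCODE M21 transcripts (GRCm38) for the members. A tag was read for 29 of the 33 listed symbols, Tdh among them, and none is given for Aldh7a1. For 3 (Hibch, Mcee and Gcdh) the last CATG lay too close to the annotated transcript end for a tag of full length. No other annotated gene had the same predicted tag as any of the 29. Of these, 15 had coding transcripts with more than 1 possible tag, Dbt (2 tags) among them. Of the predicted tags 24 lay in the 3' UTR and 5 in coding sequence.

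The predicted tags of the dehydrogenase subunits, 3 valine genes and Aldh5a1 are shown because the results below turn on these genes. All 7 lie in the 3' UTR of the last exon. Dbt lies at chr3:116549842-116549868 (plus strand), Bckdha at chr7:25630088-25630114 (minus), and Bckdhb at chr9:84124184-84124210 (plus). Acad8 lies at chr9:26974728-26974754 (minus), Hibadh at chr6:52546340-52546366 (minus), Aldh6a1 at chr12:84431320-84431346 (minus), and Aldh5a1 at chr13:24907649-24907675 (minus). Each is written 5′ to 3′ along the transcript, with the anchoring site in capitals.
Dbt: CATGtatctgtatacataggtaagtat
Bckdha: CATGtttgcagccattgctgcggctac
Bckdhb: CATGactataaataccgggtggtgttg
Acad8: CATGacgtttgtgacattctgacttag
Hibadh: CATGtttttgactccagaaaaatgaca
Aldh6a1: CATGtgtggacagtgctgctccagtcc
Aldh5a1: CATGtacacattgcttcatttttctag
The GC content of these tags ran from 29.6% in Dbt to 59.3% in Aldh6a1, with 55.6% in Bckdha and 44.4% in Bckdhb.

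Total counts ran from 9390065 to 19397255 in knockout libraries and from 8334436 to 16238258 in control libraries. Cpt1b had a lowest, median and highest level of 1.09, 3.83 and 6.45 CPM in knockout muscle, against 4.44, 6.50 and 13.1 CPM in control muscle. Of the 7 knockout libraries 5 lay below every control (two-sided exact permutation test over 6435 splits, p = 0.00389 on the log2 scale), but the gene did not pass over all genes tested (log2 fold change -1.03 ± 0.31 (SE), edgeR adjusted p = 0.103). With 1 library left out, Cpt1b passed only without control 7 (log2 fold change -1.11, edgeR adjusted p = 0.0487). Which exons were deleted is not given, and a tag outside them would not check the genotype. All 12 markers of skeletal muscle fibres were present, with summed levels of 130064 to 191930 CPM in knockout and 139585 to 212770 CPM in control libraries.

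Knockout 4 and control 7 stood apart from the other libraries of their groups. They also had the highest total count of their groups, 19397255 in knockout 4 and 16238258 in control 7. Their scores on the leading principal component were 76.2 and 51.2, while the other libraries lay between -43.0 and 29.7. Tags of the fast myosin light chain Myl1 took 4.77% of counts in knockout 4 and 5.78% in control 7, against 1.74% to 4.67% in the others. Among the 32 members, knockout 4 was the highest or the lowest knockout for 18 and control 7 the highest or the lowest control for 19. Both were the highest of their group for 5 members (Mccc2, Auh, Acad8, Pcca and Mmaa) and the lowest for 8 (Bckdha, Bckdhb, Acadsb, Aass, Aldh7a1, Aldh4a1, Oat and Aldh5a1). For members whose call or direction turned on these libraries, values without them are given below or as a range in the last section.

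**Figure D1:**
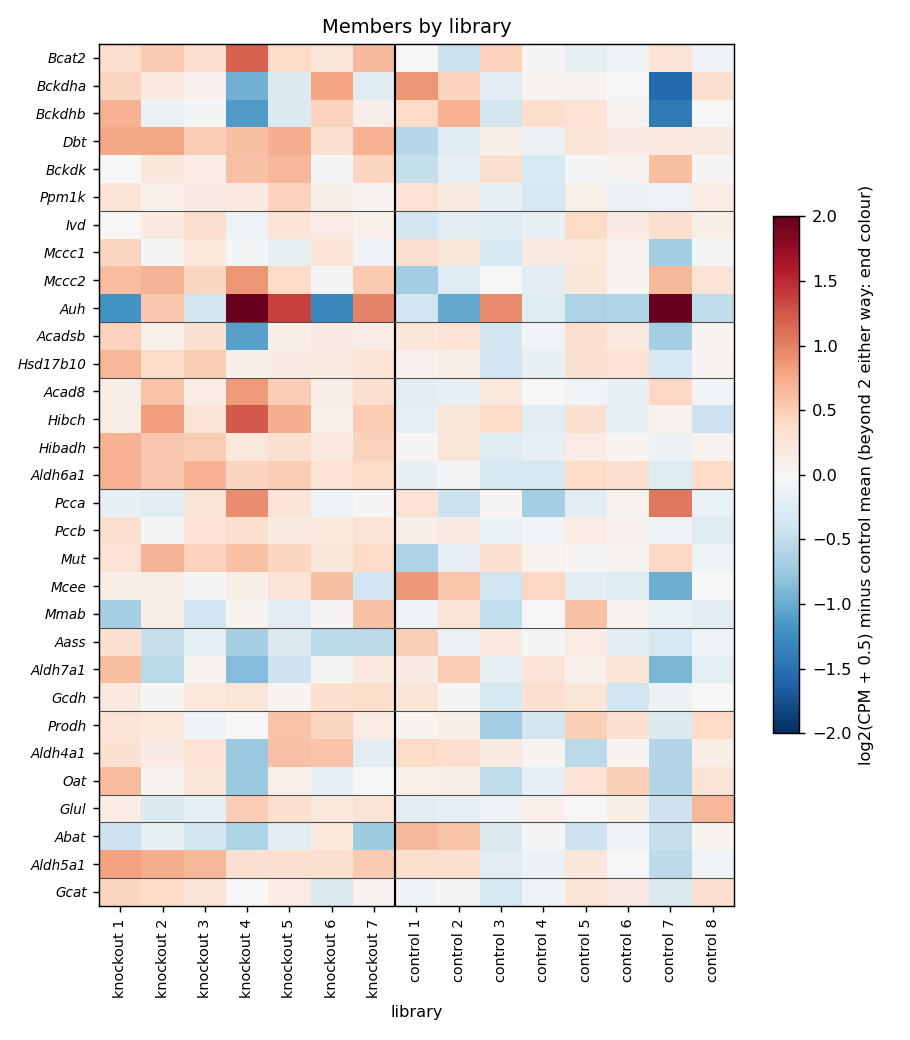
Level of each tested member (rows, grouped by route) in each library (columns, knockout left of control), as log2(CPM + 0.5) minus the mean of the 8 controls, with values beyond 2 either way drawn in the end colour. Dbt and the 4 valine genes (Acad8, Hibch, Hibadh and Aldh6a1) are above the control mean in all 7 knockout libraries. So are Bcat2, Ppm1k, Hsd17b10, Mut, Gcdh and Aldh5a1, while Bckdha, Bckdhb and Auh stand out in knockout 4 and control 7.

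Across the set, 1 member rose in knockout muscle and none fell. The member that rose was Dbt, the acyltransferase core of the branched-chain dehydrogenase complex. Over all 11062 genes tested, 1.67% were called higher and 0.497% lower in knockout (edgeR quasi-likelihood test, adjusted p under 0.05). A count of 1 of 31 tested members (3.23%) is near that background and says little about the set. At an unadjusted p under 0.05, 11 of the 31 (35.5%) were higher in knockout and none lower, where 7.65% of all genes tested were higher and 5.93% lower. The members were chosen with earlier results of these data known and were measured in the same libraries. These shares are therefore not a test of the set. The difference was positive for 25 of the 31 and negative for 6, and the median log2 difference was 0.19, against 0.00463 over all genes tested. DESeq2 called 5 members higher (Dbt, Bcat2, Hibadh, Aldh6a1 and Aldh5a1) and none lower. The edgeR count was 3 without control 7 (Dbt, Mccc2 and Mut), 2 without knockout 4 or without knockout 6 (Dbt and Hibadh), and 2 without control 7 and knockout 4 together (Dbt and Hibadh). It was 6 in a fit that added a surrogate variable, which added Bcat2, Hsd17b10, Hibadh, Aldh6a1 and Aldh5a1 to Dbt.

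**Figure D2:**
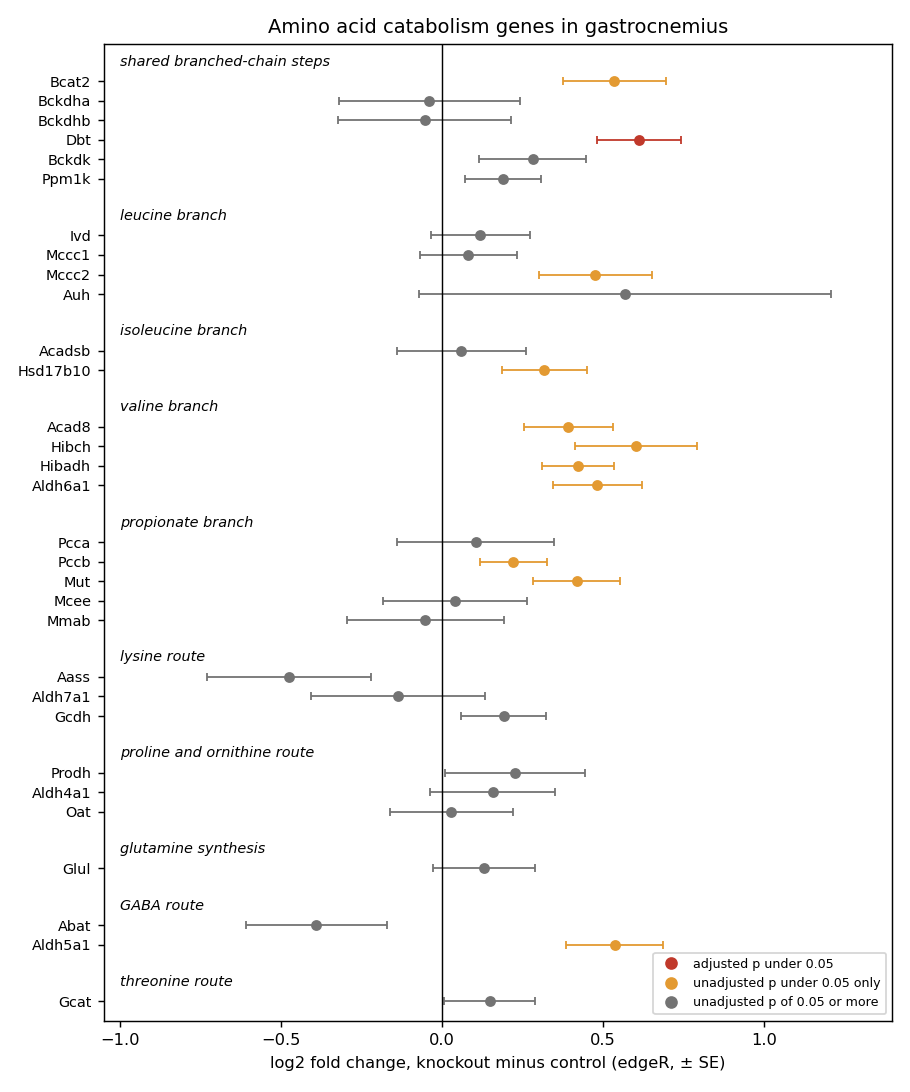
Log2 fold change of knockout minus control for the 31 tested members, grouped by route (edgeR estimate ± SE, 7 knockout and 8 control libraries). Dbt is the one member with an adjusted p under 0.05, the 10 members in orange have an unadjusted p under 0.05 only, and Aass and Abat lie farthest on the negative side.

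Among the shared branched-chain steps the acyltransferase rose in knockout muscle, the aminotransferase did not pass the test, and the decarboxylase subunits spread over a wide range in both groups. Dbt had a lowest, median and highest level of 89.3, 114 and 120.1 CPM in knockout libraries, against 47.3, 77.7 and 85.3 CPM in control libraries. The groups did not overlap, with all 7 knockouts above all 8 controls, and 1.19% of all genes tested had no overlap in either direction. Dbt rose by a log2 fold change of 0.61 ± 0.13, a 1.53-fold difference (edgeR adjusted p = 0.0142). The estimate was 0.63 without knockout 4 and control 7 (adjusted p = 0.0120), and over the fits that left out 1 library the adjusted p ran from 0.00987 to 0.0451.

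Bcat2, the mitochondrial branched-chain aminotransferase, had 27.7, 30.2 and 53.5 CPM as its lowest, median and highest level in knockouts, against 17.3, 22.8 and 32.3 CPM in controls. The groups overlapped, and 3 of the 7 knockout libraries lay above all controls. The log2 difference was 0.54 ± 0.16 and did not pass over all genes (edgeR adjusted p = 0.1003, unadjusted p = 0.00335). Knockout 4 held the highest value, and without it and control 7 the difference was 0.43 (adjusted p = 0.0872).

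Bckdha and Bckdhb encode the alpha and beta subunits of the decarboxylase that hands its product to Dbt. Bckdha had 114, 238 and 386 CPM in knockouts, against 75.9, 233 and 413 CPM in controls. Bckdhb had 132, 279.7 and 469 CPM in knockouts, against 108, 326 and 465 CPM in controls. The groups overlapped over almost their whole range, with the lowest values of both genes in knockout 4 and control 7. The log2 differences were -0.04 ± 0.28 for Bckdha and -0.05 ± 0.27 for Bckdhb (edgeR adjusted p = 0.957 and 0.937). With errors this wide, the estimates do not show that the subunits were level. In a fit that added a surrogate variable they were 0.36 and 0.33 (adjusted p = 0.151 and 0.122), and neither sign is settled.

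The regulators of the complex were expressed at lower tag levels than its subunits. Bckdk, the kinase that inactivates the complex, had 16.1, 19.1 and 26.2 CPM in knockouts, against 11.5, 16.4 and 25.0 CPM in controls. Its log2 difference was 0.28 ± 0.17 (edgeR adjusted p = 0.470). Ppm1k, the phosphatase that reactivates the complex, had 20.3, 22.1 and 27.3 CPM in knockouts, against 15.4, 19.6 and 23.9 CPM in controls. Its log2 difference was 0.19 ± 0.12 (adjusted p = 0.493). For both genes 1 knockout library lay above all controls, and neither passed at an unadjusted p of 0.05.

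**Figure D3:**
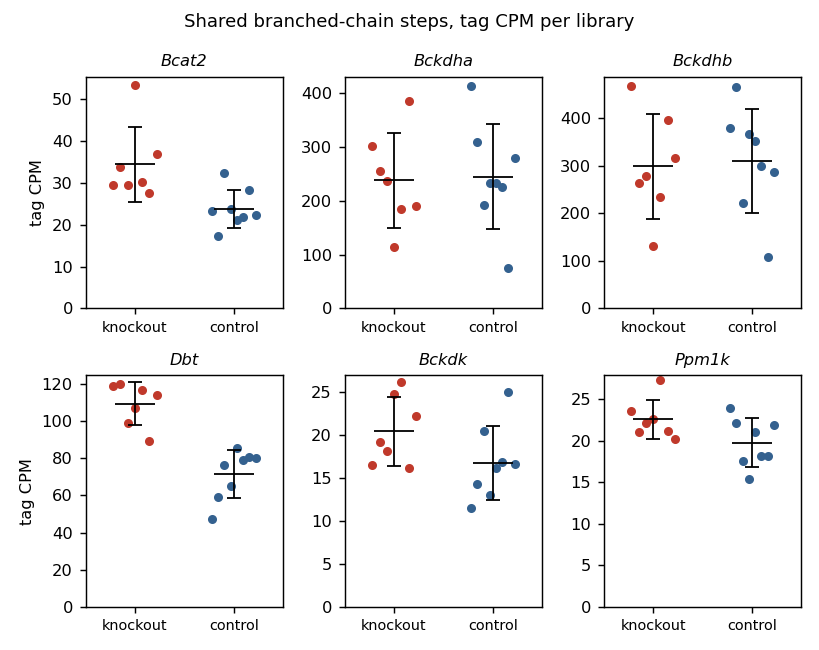
Tag CPM of the 6 genes of the shared branched-chain steps, 1 point per library, with knockout (n = 7) left of control (n = 8) and black marks for mean ± SD. The Dbt points of the groups do not overlap, while the controls alone spread from 75.9 to 413 CPM for Bckdha and from 108 to 465 CPM for Bckdhb.

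In the valine branch all 4 genes stood higher in knockout muscle at an unadjusted p under 0.05, and none passed over all genes tested. Their median log2 difference was 0.45, with a range of 0.39 to 0.60. The sum of the 4 levels ran from 228 to 302 CPM in knockouts, with a median of 266 CPM, and from 175 to 223 CPM in controls, with a median of 199.9 CPM. The sums did not overlap between the groups, but each of the 4 genes by itself did. Hibadh, the most abundant of them, had the largest part in the sums. Of all single genes tested, 7.65% were higher at an unadjusted p under 0.05 and 1.19% had no overlap in either direction. No such share was taken for sums of genes. The sums of the other branched-chain routes overlapped between knockouts and controls. They were 454 to 959 against 336 to 899 CPM for the shared steps and 72.1 to 142 against 65.6 to 111 CPM for leucine. For isoleucine they were 94.1 to 157 against 76.4 to 127 CPM, and for propionate 383 to 583 against 313 to 621 CPM.

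Acad8, which oxidises isobutyryl-CoA, had 32.6, 37.1 and 54.1 CPM in knockouts, against 25.6, 28.6 and 39.5 CPM in controls (log2 difference 0.39 ± 0.14, edgeR adjusted p = 0.189). Hibch, the hydrolase that frees hydroxyisobutyrate from CoA, had 7.34, 9.98 and 16.7 CPM in knockouts, against 5.003, 6.65 and 8.94 CPM in controls (0.60 ± 0.19, adjusted p = 0.126). Knockout 4 was the highest library for both genes, and without it and control 7 the differences were 0.36 and 0.45. Hibadh, which oxidises hydroxyisobutyrate, had 131, 157 and 186 CPM in knockouts, against 95.8, 116 and 136 CPM in controls. Of the 7 knockout libraries 5 lay above all controls, and the log2 difference was 0.42 ± 0.11 (adjusted p = 0.0592). Hibadh crossed the threshold without knockout 4 (adjusted p = 0.0403) or without both libraries (0.0416), and by DESeq2 (0.00954). Aldh6a1, the dehydrogenase that turns methylmalonate semialdehyde into propionyl-CoA, had 56.9, 65.8 and 75.7 CPM in knockouts, against 36.8, 44.0 and 61.8 CPM in controls. Again 5 of the 7 knockout libraries lay above all controls (0.48 ± 0.14, adjusted p = 0.0906, and 0.0412 by DESeq2).

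In the leucine branch the estimates were positive for all 4 genes, and 1 had an unadjusted p under 0.05. Ivd, isovaleryl-CoA dehydrogenase, had 4.81, 5.78 and 6.67 CPM in knockouts, against 3.85, 5.13 and 6.92 CPM in controls, a log2 difference of 0.12 ± 0.15 (edgeR adjusted p = 0.732). The 2 subunits of methylcrotonyl-CoA carboxylase gave unequal estimates. Mccc2, the subunit without biotin, had 24.4, 36.3 and 46.7 CPM in knockouts, against 15.3, 25.5 and 39.5 CPM in controls (0.48 ± 0.18, adjusted p = 0.222). Mccc1, the subunit that carries biotin, had 29.0, 32.8 and 43.6 CPM in knockouts, against 19.8, 35.2 and 40.7 CPM in controls (0.08 ± 0.15, adjusted p = 0.817). Whether the subunits differed from each other in their change was not tested. Mccc2 passed without control 7 (0.59, adjusted p = 0.0454), but not without control 7 and knockout 4 together.

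Auh, the methylglutaconyl-CoA hydratase of leucine breakdown, was the most uneven member. It had 2.89, 11.4 and 58.7 CPM in knockouts, against 3.55, 5.55 and 44.7 CPM in controls, with the top values in knockout 4 and control 7. The log2 difference was 0.57 ± 0.64, 1.37 without control 7, -0.20 without knockout 4 and 0.58 without both, so it has no settled direction.

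The isoleucine branch held Acadsb, which oxidises methylbutyryl-CoA, and Hsd17b10, the dehydrogenase of a later step. Acadsb had 12.4, 29.7 and 37.2 CPM in knockouts, against 16.8, 29.2 and 33.8 CPM in controls (log2 difference 0.06 ± 0.20, edgeR adjusted p = 0.897). Hsd17b10 had 81.7, 91.8 and 119.6 CPM in knockouts, against 57.5, 79.4 and 93.4 CPM in controls. Of its knockout libraries 3 lay above all controls (0.32 ± 0.13, adjusted p = 0.299, unadjusted p = 0.027).

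Propionyl-CoA from valine and isoleucine passes through a carboxylase, an epimerase and a cobalamin-dependent mutase to succinyl-CoA. Mut, the mutase, had 104, 118 and 141 CPM in knockouts, against 57.2, 90.1 and 117 CPM in controls, and 4 of the 7 knockout libraries lay above all controls. Its log2 difference was 0.42 ± 0.14 (edgeR adjusted p = 0.148). It passed without control 7 (adjusted p = 0.0438), but not without control 7 and knockout 4 together. Pccb, the beta subunit of the carboxylase, had 27.4, 34.3 and 35.3 CPM in knockouts, against 23.5, 28.5 and 32.1 CPM in controls (0.22 ± 0.10, adjusted p = 0.362, unadjusted p = 0.0475). For Pccb 5 of the 7 knockouts lay above all controls, and knockout 2 was low.

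The other propionate genes gave estimates near 0. Pcca, the biotin-carrying alpha subunit, had a log2 difference of 0.11 ± 0.24, with medians of 9.90 CPM in knockouts and 9.37 CPM in controls. Mcee, the epimerase, was the most abundant of this branch by median, at 314 CPM in knockouts and 266 CPM in controls (0.04 ± 0.22). Mmab, which makes the active form of cobalamin, had medians of 1.89 CPM in knockouts and 1.79 CPM in controls (-0.05 ± 0.24). Mmaa had 0.605 CPM as its median in knockouts and 0.699 CPM in controls, with a mean of 10.2 tags per library, and was not tested.

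**Figure D4:**
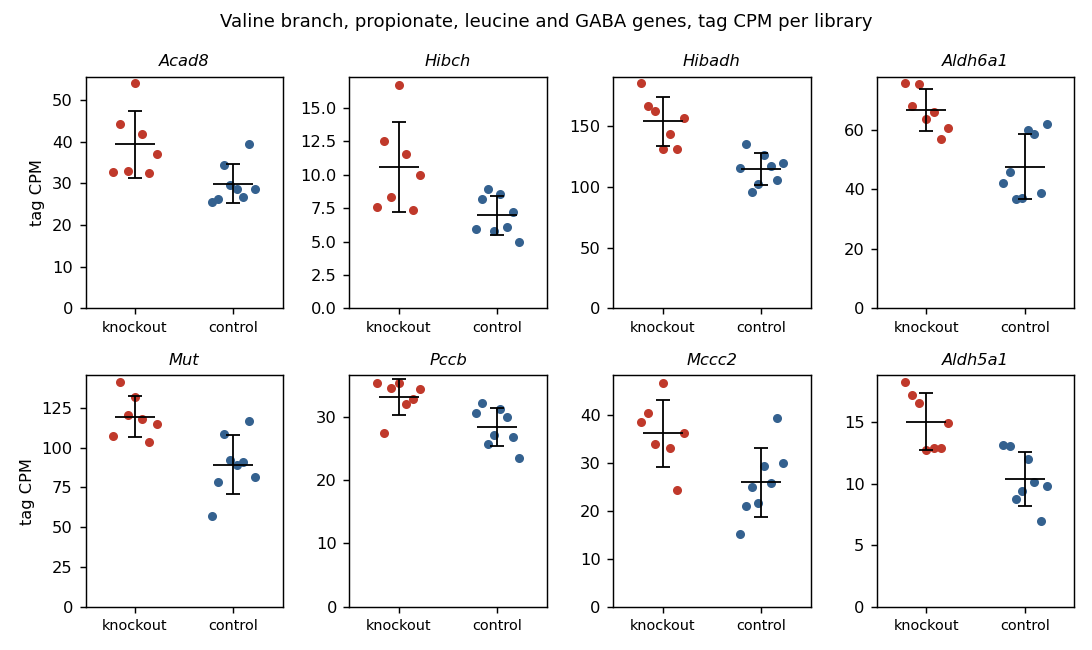
Tag CPM of 8 members outside the shared steps, 1 point per library, with knockout (n = 7) left of control (n = 8) and black marks for mean ± SD. Acad8, Hibch, Hibadh and Aldh6a1 belong to the valine branch, and in each of the 8 panels the knockout mean is above the control mean with overlapping points.

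Outside the branched-chain routes, 1 of the 10 tested members had an unadjusted p under 0.05 and none passed over all genes tested by edgeR. Their median log2 difference was 0.14, against 0.28 for the 21 tested branched-chain members, of which 10 had an unadjusted p under 0.05. The difference between these sets was not tested. Over all genes tested 7.65% were higher at an unadjusted p under 0.05. A count of 1 of 10 is near that background and says little about the routes outside. The 1 member was Aldh5a1, succinate semialdehyde dehydrogenase, the last step of GABA breakdown. It had 12.8, 14.9 and 18.2 CPM in knockouts, against 6.94, 9.99 and 13.2 CPM in controls, with 4 of 7 knockouts above all controls. The log2 difference was 0.54 ± 0.15 (edgeR adjusted p = 0.0763, and 0.0336 by DESeq2). Abat, the transaminase before it, had 2.49, 3.34 and 5.23 CPM in knockouts, against 3.07, 4.28 and 7.197 CPM in controls (-0.39 ± 0.22, adjusted p = 0.451).

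Aass, the bifunctional first enzyme of the lysine route, had the lowest estimate of the set. It had 0.571, 0.736 and 1.60 CPM in knockouts, against 0.848, 1.12 and 1.86 CPM in controls, with 4 of the 7 knockouts below all controls. Its log2 difference was -0.47 ± 0.25 (edgeR adjusted p = 0.430), on a mean of 12.9 tags per library. Aldh7a1, the next dehydrogenase, had medians of 2.89 CPM in knockouts and 3.16 CPM in controls (-0.14 ± 0.27). Gcdh, glutaryl-CoA dehydrogenase, had medians of 14.7 CPM in knockouts and 12.7 CPM in controls (0.19 ± 0.13). No gene of this route had an unadjusted p under 0.05.

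Proline and ornithine enzymes differed by less than the spread between libraries. Prodh, proline dehydrogenase, had medians of 2.70 CPM in knockouts and 2.43 CPM in controls (log2 difference 0.23 ± 0.22). Aldh4a1, which completes the conversion of proline to glutamate, had medians of 60.7 CPM in knockouts and 53.2 CPM in controls (0.16 ± 0.20). Oat, ornithine aminotransferase, had medians of 99.3 CPM in knockouts and 103 CPM in controls (0.03 ± 0.19). Their edgeR adjusted p ran from 0.651 to 0.952.

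Glul, glutamine synthetase, through which muscle exports amino groups as glutamine, had 202, 284 and 345 CPM in knockouts, against 184, 239 and 387 CPM in controls. The log2 difference was 0.13 ± 0.16 (edgeR adjusted p = 0.718), and the highest library was a control. Gcat, the ligase of the second step of threonine breakdown, had medians of 19.4 CPM in knockouts and 17.2 CPM in controls (0.15 ± 0.14, adjusted p = 0.649).

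Further enzymes, carriers and regulators of these pathways were listed beside the members, 22 next to the branched-chain routes and 38 of other amino acid routes. Of the 20 tested genes of the first list 4 rose and none fell (10 higher and none lower at an unadjusted p under 0.05, and by DESeq2 none of either list was lower). Of the 25 tested genes of the other list 2 rose and none fell (7 higher and 1 lower at an unadjusted p under 0.05). The median log2 differences of the lists were 0.36 and 0.25, against 0.00463 over all genes tested. Of all genes tested, 1.67% were called higher and 0.497% lower by edgeR. At an unadjusted p under 0.05, 7.65% were higher and 5.93% lower. The lists were chosen with earlier results of these data known. Several of the first list also serve fatty acid oxidation or ketone body use, so they do not stand for amino acid breakdown alone.

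Acat1, the thiolase that splits the last intermediate of isoleucine and also acts on ketone bodies, had 232, 271 and 327 CPM in knockouts, against 113, 148 and 174 CPM in controls. It rose by 0.94 ± 0.13 on the log2 scale (edgeR adjusted p = 0.000164), with no overlap between the groups. Echs1, the short-chain enoyl-CoA hydratase of valine, isoleucine and fatty acid breakdown, had 14.6, 20.1 and 26.0 CPM in knockouts, against 6.08, 10.2 and 16.1 CPM in controls. With 6 of 7 knockouts above all controls, it rose by 0.85 ± 0.19 (adjusted p = 0.0229). That call was lost without control 4 (adjusted p = 0.0543), control 5 (0.0511), control 6 (0.0541), knockout 2 (0.0593) or knockout 5 (0.0504), and with scaling by library totals alone (0.0523), among the alternatives without a block. Etfdh, which passes electrons from acyl-CoA dehydrogenases to the respiratory chain, had 177, 302 and 518 CPM in knockouts, against 77.8, 89.8 and 198 CPM in controls (1.39 ± 0.27, adjusted p = 0.00646), and 5 of 7 knockouts lay above all controls. The subunits of the electron carrier before it, Etfa (0.63 ± 0.17, adjusted p = 0.0638) and Etfb (0.91 ± 0.28, adjusted p = 0.110), did not pass. Etfa passed without knockout 4 (0.75, adjusted p = 0.0029), without both set-apart libraries (0.0024), by DESeq2 (0.0268), with library totals alone (0.0245) and with a surrogate variable (0.000115). Etfb passed without control 7 (1.04, adjusted p = 0.0414), by DESeq2 (0.0459) and with a surrogate variable (0.0324), but not without both libraries (0.0749).

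Oxct1, which activates ketone bodies for use as fuel, had 603, 648 and 836 CPM in knockouts, against 303, 457 and 525.9 CPM in controls, without overlap. It rose by 0.58 ± 0.13 (edgeR adjusted p = 0.0184, and 0.0692 without knockout 2). In the list of other routes the genes that rose were Fah, the last enzyme of tyrosine breakdown, and Shmt1, the cytosolic serine hydroxymethyltransferase. Fah had 14.7, 20.6 and 33.0 CPM in knockouts, against 5.86, 8.86 and 10.9 CPM in controls, without overlap (1.38 ± 0.19, adjusted p = 0.000248). Shmt1 had 9.56, 13.9 and 22.3 CPM in knockouts, against 5.34, 7.74 and 9.90 CPM in controls (0.90 ± 0.19, adjusted p = 0.0111). Gpt, the cytosolic alanine transaminase, and Mmadhc, which directs cobalamin to its enzymes, had differences of 0.88 ± 0.25 and 0.39 ± 0.12 that did not pass (adjusted p = 0.0794 and 0.122). Gpt passed without control 7 (1.09, adjusted p = 0.00678), without knockout 6 (0.0388), without control 7 and knockout 4 together (0.0102), by DESeq2 (0.0228) and with a surrogate variable (0.00823).

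**Figure D5:**
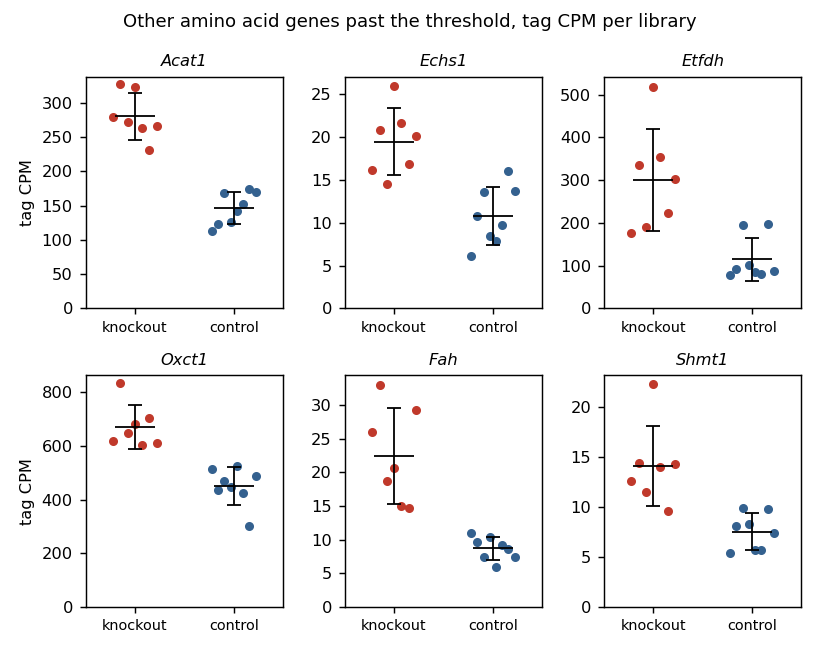
Tag CPM of the 6 listed pathway genes outside the set that rose in knockout muscle, 1 point per library, with knockout (n = 7) left of control (n = 8) and black marks for mean ± SD. Acat1, Oxct1 and Fah show no overlap between the groups, while Echs1, Etfdh and Shmt1 overlap in the lowest knockout libraries.

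Some markers of muscle fibres, fibre type and other cell types also differed in level between the groups. Of the 12 muscle fibre markers, 1 rose (Mb, myoglobin, log2 0.71) and 1 fell (Tnnt3, fast troponin T, -0.65). The difference was negative for 10 of the 12, with a median of -0.20. In bulk muscle, fewer cells of a type and less RNA per cell cannot be told apart. Slow-fibre markers had a positive difference in 7 of 7 genes, with a median log2 difference of 0.68. Of these, 1 passed the threshold (Atp2a2, log2 0.84, edgeR adjusted p = 0.00898) and 4 were higher at an unadjusted p under 0.05. Over all genes tested, 7.65% were higher and 5.93% lower at that unadjusted level. The slow-fibre sums were 2460 to 4237 CPM in knockouts and 1492 to 3894 CPM in controls. Fibroblast markers were lower in 4 of 6 genes, none past the threshold and 3 at an unadjusted p under 0.05, with sums of 1230 to 3080 CPM in knockouts and 2174 to 3844 CPM in controls. Tendon markers were lower in 4 of 5, 1 past the threshold (Comp, -0.79), with sums of 124 to 454 CPM in knockouts and 166 to 453 CPM in controls. Adipocyte markers were lower in 3 of 8, 1 past the threshold (Lep, -1.83), with sums of 1343 to 3381 CPM in knockouts and 1527 to 2117 CPM in controls. Most of these sums came from Fabp4 and Car3, with means of 1103 and 842 CPM in knockouts and 948 and 793 CPM in controls. Adipoq had a mean of 28.4 CPM in each group, so the sums do not measure the level of adipocyte RNA. Among the 7 tested macrophage markers, and in the endothelial, smooth muscle, erythroid, Schwann and satellite cell lists, no gene passed, and the lymphocyte list had no testable gene. No slow-fibre, fibroblast, tendon or adipocyte marker was at 0 in any library. Their part in the differences of the amino acid genes was not tested.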

How the data were processed

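Gastrocnemius RNA (500 ng per sample, per the labels' protocols) was sequenced as SOLiD SAGE tags, 1 library for each of 7 knockout and 8 control mice. The authors deposited whole-number tag counts per gene symbol, and a table of normalized signal that equals those counts divided by a size factor per library (largest relative deviation 5.42e-10 over 13601 shared symbols). The submitters' processing notes name DESeq2, mm10 and GRCm38.p1, and the aligner is not given in the sources used here. A set of 360 rows without a symbol held 0 counts and was left out. The test on the deposited counts was that of edgeR 4.0.16, run under R 4.3.3 (TMM scaling, filterByExpr with a minimum count of 10, robust quasi-likelihood test, group as the only term, Benjamini-Hochberg adjustment over all 11062 genes tested, called under 0.05). The filter removed 2540 genes. The standard error is the fold change over the root of the F statistic. The biological coefficient of variation was 0.291. The fitting step alone was also run on simulated counts with planted changes and no set-apart libraries. Its outcome enters no result here. Alternatives were DESeq2 1.42.0, other scalings, no filter, a surrogate variable (sva 3.50.0), a replicate block, and each library left out. The members and lists were chosen with earlier results of these data known. All members are described, and outside them the 6 listed genes that passed and the next 4 by p are named with values. Tag sequences are predictions from GENCODE M21 transcripts and entered no value. The labels do not say whether mice shared litters or extraction days, so p-values measure the spread between these samples.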

Additional observations from a re-analysis of the deposited data

Results flagged for a closer look

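Of 86 gene-by-group sets of libraries (the members, the 10 other named pathway genes and Cpt1b, in each group), 14 had a highest or lowest library set apart from the rest by Dixon's criterion, which chance alone meets in about 1 of 20 sets. Knockout 4 accounted for 7 of them. It was high for Bcat2 (53.5 CPM, next 36.9), Auh (58.7, next 20.8), Pcca (18.9, next 11.8), Shmt1 (22.3, next 14.4) and Mmadhc (59.4, next 50.8), and low for Acadsb (12.4, next 28.7) and Etfa (48.0, next 95.6). Control 7 was high for Auh (44.7 CPM, next 15.4) and Pcca (20.8, next 12.0) and low for Oxct1 (303, next 426). The others were knockout 2, low for Pccb (27.4 CPM, next 31.95) and high for Oxct1 (836, next 703), knockout 1, high for Aass (1.60, next 0.977), and control 8, high for Glul (387, next 267).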

How the results depend on the processing

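Dbt was called higher under every alternative run except the replicate block, and no member was called lower under any. The members called higher were 4 with library totals alone, 5 by DESeq2, 6 with the first surrogate variable, 2 without control 7 and knockout 4 together (an alternative chosen after seeing the data), and 1 to 3 when 1 library was left out. Genes called higher and lower numbered 185 and 55, against 310 and 145 by DESeq2, 350 and 143 with the surrogate variable, and 255 and 148 without control 7 and knockout 4. With 1 library left out they ran from 131 to 311 higher and from 30 to 154 lower. The other pathway genes called higher were 14 with the surrogate variable and 4 to 9 with 1 library left out, against 6. Cpt1b stayed between -1.18 and -0.77 with 1 library left out (exact permutation p from 0.000999 to 0.0113). Its edgeR adjusted p ran from 0.0487 to 0.212 over the fits that left out 1 library. Over the other alternatives, DESeq2 among them, the adjusted p of Cpt1b ran from 0.0309 to 0.177.

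Same-numbered libraries of the groups had correlated deviations of -0.45 to 0.31, over 0.1 in 3 of 7 pairs, and 1 of 7 knockouts correlated best with its own number, so the numbers were not taken as pairs. With the replicate block, 98 genes were called higher and 19 lower, with 0 members. Dbt was 0.65 (adjusted p = 0.117), Echs1 0.94 (0.0648) and Oxct1 0.60 (0.132). Bckdha was 0.040 with the block.

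Estimates that changed sign, none of them called, were Bckdha (0.021), Bckdhb (0.017) and Mmab (0.023) with library totals alone. With the surrogate variable they were Bckdha (0.36), Bckdhb (0.33), Auh (-0.30), Pcca (-0.10) and Aldh7a1 (0.16), and without control 7 and knockout 4 Mcee (-0.067). With 1 library left out, Bckdha ran from -0.20 to 0.11, Bckdhb from -0.20 to 0.076, Auh from -0.20 to 1.37, Acadsb from -0.017 to 0.19, Pcca from -0.076 to 0.34, Mcee from -0.063 to 0.19, Mmab from -0.22 to 0.078 and Oat from -0.090 to 0.13. The cause was not tested. Depth limits Aass and Mmaa, with means of 12.9 and 10.2 tags per library.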
